A study of Mus musculus with 7 samples.

Results

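Uteri collected 1 h after an injection of dihydrotestosterone (DHT) were set against uteri of vehicle-treated mice on a microarray. Each side was 1 array of pooled RNA, so 2 of the 7 arrays of the series make the comparison, and it covers 12422 probe sets, all those on the array other than the maker's controls. A probe set is a group of short oligonucleotides that reads 1 transcript. The 1 h group received DHT at 0.1 mg per mouse under the skin 1 h before death, and the vehicle group received the vehicle solution 24 h before death. Both groups were C57BL/6 females whose ovaries had been removed and who were killed 7 days after that operation, so neither had ovarian estrogen or progesterone. The labels give an age of 10 to 11 weeks, which the growth protocol gives as the age on arrival, ahead of 4 weeks of acclimation. The protocols speak of 10 mice and leave unsaid how many went into each pool. The other 5 arrays of the series are pools taken 3, 6, 12, 18 and 24 h after the same dose of DHT. They do not enter the ratios and are given beside them to show where the 1 h and vehicle signals lay.

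DHT is a potent natural androgen that cannot be converted to estrogen. Like other steroids it acts through a receptor protein that, once bound, enters the nucleus, binds DNA and alters transcription. Many steroid-responsive genes need hours to build up their RNA, while immediate early genes such as Fos, which many signals switch on without new protein synthesis, can change within the first hour. The uterus is a smooth muscle wall around a stroma lined by epithelium, and it responds to androgen as well as to estrogen.

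With 1 array a side there is no replicate, so no difference here was tested and every value below describes these pools. The mice of the vehicle pool were killed 24 h after injection and those of the 1 h pool 1 h after, so the effect of DHT and the effects of a recent injection, handling and hour of day cannot be told apart at 1 h. In whole uterus, fewer cells of a type and less RNA per cell cannot be told apart either. Values are array signals (linear intensity, scaled by the authors to a common mean). A floor was set at 145.9, below which 40% of all values lie. Lower signals were set to it before log2 ratios were taken, and a ratio against an array at the floor is a bound. A gene is represented by its brightest probe set. Of 8251 genes so represented, 6003 were above the floor on at least 1 of the 2 arrays.

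In technical respects the pair of arrays was close. The ratio of 3 prime to 5 prime signal of the actin control was 1.19 at 1 h and 1.14 on vehicle, and that of Gapdh was 0.832 at 1 h and 0.836 on vehicle. The added control RNAs of the hybridization averaged -0.02 on the log2 scale at 1 h relative to vehicle, where the later arrays lay between -0.36 and 0.57. Of the 66 control probe sets none was 2-fold apart, with log2 ratios from -0.58 to 0.30. The median log2 ratio over the 6003 genes was 0.00, and 95% of them lay between -0.62 and 0.64. Above 0 lay 3038 of them (50.6%), and 2963 lay below.

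The tissue carried the markers of a uterus on both arrays. Above the floor were 11 of 12 epithelial, 10 of 10 smooth muscle, 10 of 12 stromal and 9 of 11 endothelial markers.

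Gadd45g had the largest ratio of all genes that were above the floor on both arrays. Described with it are its relatives Gadd45a (log2 0.78) and Gadd45b (0.48, a bound), the immediate early gene Fos (0.97) and the signalling inhibitor Dusp1 (0.61). These were taken from the gene lists, and their ratios were below 2-fold. The genes nearest to Gadd45g in ratio were others, such as Larp7, Nxn and Lep, given further below. The Gadd45 genes encode small stress-response proteins that bind and activate the kinase Map3k4. Fos encodes a subunit of the transcription factor AP-1, and Dusp1 a phosphatase that switches off MAP kinases. Their promoters are shown as those of the Gadd45 genes and of the highest member of the early and the feedback list. The sequences are from RefSeq (GRCm38.p6), each from 250 bases before to 50 bases after a gene start. They are Gadd45g at chr13:51846425-51846724 on the plus strand, Gadd45a at chr6:67037358-67037657 on the minus strand, Gadd45b at chr10:80929841-80930140 on the plus strand, Fos at chr12:85473640-85473939 on the plus strand and Dusp1 at chr17:26508423-26508722 on the minus strand. Each is written 5′ to 3′, and capitals mark matches to the motifs described below.
Gadd45g: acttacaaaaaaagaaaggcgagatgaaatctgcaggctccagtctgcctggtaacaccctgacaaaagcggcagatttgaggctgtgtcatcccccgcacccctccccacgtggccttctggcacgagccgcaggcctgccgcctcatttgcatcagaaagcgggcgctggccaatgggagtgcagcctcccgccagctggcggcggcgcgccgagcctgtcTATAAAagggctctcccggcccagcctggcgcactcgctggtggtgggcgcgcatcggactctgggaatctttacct
Gadd45a: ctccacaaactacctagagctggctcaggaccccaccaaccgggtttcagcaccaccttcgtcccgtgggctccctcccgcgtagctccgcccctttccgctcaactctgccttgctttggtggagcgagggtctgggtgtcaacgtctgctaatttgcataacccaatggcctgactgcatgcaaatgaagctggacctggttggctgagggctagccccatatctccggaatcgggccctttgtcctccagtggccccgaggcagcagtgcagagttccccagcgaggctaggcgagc
Gadd45b: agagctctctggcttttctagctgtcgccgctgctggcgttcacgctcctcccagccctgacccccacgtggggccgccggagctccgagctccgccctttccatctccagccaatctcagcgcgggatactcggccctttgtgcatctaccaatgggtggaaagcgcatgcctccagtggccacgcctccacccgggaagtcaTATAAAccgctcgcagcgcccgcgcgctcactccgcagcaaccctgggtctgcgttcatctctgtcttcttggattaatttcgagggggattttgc
Fos: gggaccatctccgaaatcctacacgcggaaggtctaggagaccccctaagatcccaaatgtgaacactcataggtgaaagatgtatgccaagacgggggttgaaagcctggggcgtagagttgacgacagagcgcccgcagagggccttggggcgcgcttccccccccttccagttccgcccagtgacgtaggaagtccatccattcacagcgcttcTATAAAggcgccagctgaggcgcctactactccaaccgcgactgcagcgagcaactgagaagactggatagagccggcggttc
Dusp1: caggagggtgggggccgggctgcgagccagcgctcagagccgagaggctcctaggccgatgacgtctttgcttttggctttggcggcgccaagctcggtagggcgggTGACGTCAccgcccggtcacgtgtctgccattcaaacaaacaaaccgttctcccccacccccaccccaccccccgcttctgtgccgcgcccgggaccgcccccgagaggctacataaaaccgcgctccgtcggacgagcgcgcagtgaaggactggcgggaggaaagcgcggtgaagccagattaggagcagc

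In all, 6 motifs were searched on both strands in these windows and in those of the 10 genes of the 4 main lists that were at least 1.5-fold higher at 1 h. TATAAA, the core of a TATA box, begins 27 bases before the start of Gadd45g, 46 before that of Gadd45b and 33 before that of Fos. TGACGTCA, the cyclic AMP response element, begins 143 bases before the start of Dusp1. The 10 genes have 14 windows, since a gene can have several starts, and the shares over all promoters count windows. The cyclic AMP element was found in 3 of the 14, those of Dusp1, Errfi1 and Plk2, against 1.79% of the 32851 promoters in the table. TATAAA was found in 3 of the 14, those of Errfi1, Fos and Gadd45g, against 13.6% of all promoters. AGAACA, a short site known from steroid response elements, was found in 1 of the 14, a window of Bcl6, against 19% of all promoters. The full palindrome of that site and its reverse complement 3 bases apart (0.00913% of all promoters, each of which also counts for the short site), the AP-1 element TGANTCA (7.81%) and the CArG box of serum response factor (1.63%) had no match in these windows. Sequence beyond 250 bases before or 50 bases after a start was not searched, so no match in a window says nothing of sites farther off. A match is a string of letters and says nothing of whether a factor is bound.

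Gadd45g had a signal of 1481.4 at 1 h, against 435.4 on vehicle, a 3.40-fold difference (log2 1.77). Later it had signals of 3182.8, 790.1, 429.9, 268.2 and 348.9 on the 3, 6, 12, 18 and 24 h arrays. From high to low the 1 h array had rank 2 of the 7, behind 3 h, and the vehicle array rank 4. Among the 15 highest genes at 1 h, the vehicle array was the lowest of all 7 in 13, the exceptions being Gadd45g and Htr3a. Those genes were chosen by the ratio of 1 h to vehicle. The choice itself favours end positions of these arrays, so such counts only describe the chosen genes.

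Its relative Gadd45a had 857.8 at 1 h, against 500.2 on vehicle (log2 0.78). Its later signals were 863.6, 408.6, 337.4, 304.8 and 388.0 on the 3, 6, 12, 18 and 24 h arrays, so that 1 h and 3 h stood together above every other array. Gadd45b had 203.3 at 1 h and lay under the floor on vehicle, at 111.5, which bounds its difference at 1.39-fold (log2 0.48). The dimmer of its probe sets gave 0.27. Map3k4, the kinase that the 3 proteins activate, had 437.2 at 1 h, against 314.9 on vehicle (log2 0.47), and was higher at 1 h than on any later array. These are values of its brightest probe set, and the ratio of its other probe set is not given here.

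Of the list of DNA damage signalling, which holds the Gadd45 genes with the kinase Atm, the p53 targets and the repair complex, 24 genes were matched and 21 were above the floor. Of these, 3 were at least 1.5-fold higher and 0 at least 1.5-fold lower, where 3.35% of all 6003 genes were that much higher and 2.83% that much lower. The third was Cdkn1a, the cell cycle inhibitor p21, with 388.2 at 1 h and 234.3 on vehicle (log2 0.73), although its second probe set, near the floor, gave 0.04. The list's median log2 ratio was 0.25, against 0.00 over all genes, and 16 of its 21 members lay above 0 (50.6% of all genes). Perp, a p53 target in cell adhesion, had 2925.0 at 1 h, against 2086.6 on vehicle (log2 0.49). Mdm2, the ligase that degrades p53, had a log2 ratio of 0.28 and Ccng1, another p53 target, 0.30. The repair and checkpoint genes lay on both sides of 0. Atm, the kinase that senses DNA breaks, had 565.8 at 1 h and 501.0 on vehicle (log2 0.18). Rad50 was at 0.25, Nbn at 0.26, Chek1 at -0.07 and Chek2 at -0.03. Zmat3 and Ccng2, both at -0.20, were the lowest members.

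**Figure D1:**
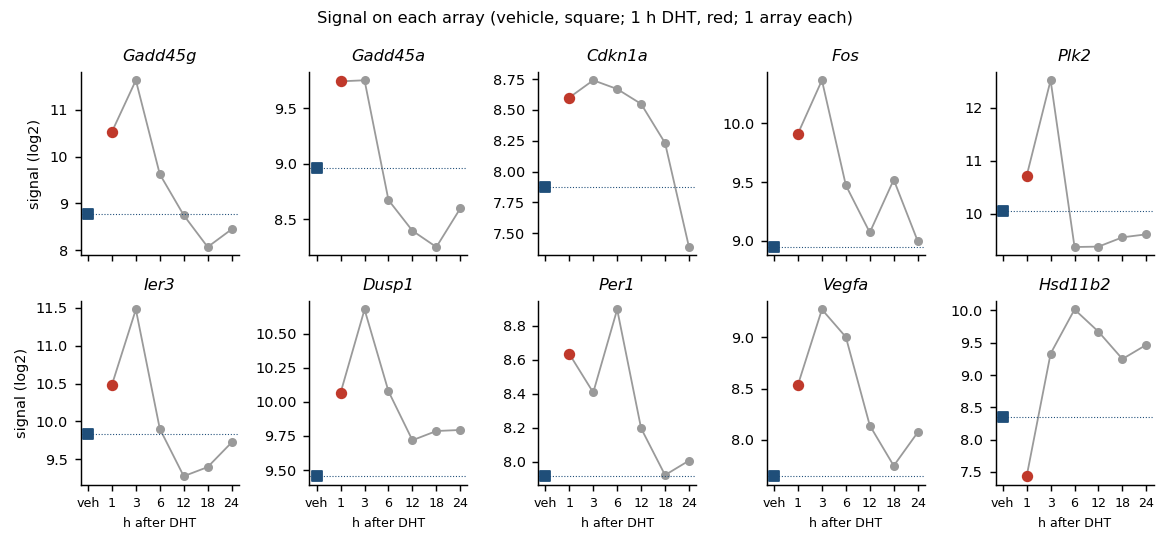
Signal of 10 genes on each of the 7 arrays (log2, with a separate axis for each gene), with the vehicle array as a blue square, the 1 h DHT array in red and the later DHT arrays in grey; the dotted line marks the vehicle level. Per1 alone of the 10 was lower at 3 h than at 1 h, and Gadd45a was nearly level between these times. Hsd11b2 alone of the 10 was lower at 1 h than on vehicle.

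Of the immediate early genes, Fos had the highest ratio, and part of the list lay below 0. Fos had 963.8 at 1 h, against 493.7 on vehicle, a 1.95-fold difference (log2 0.97). Its later signals were 1319.9, 710.4, 537.9, 734.4 and 511.5 on the 3, 6, 12, 18 and 24 h arrays, with vehicle the lowest of the 7. Plk2, a Polo-like kinase induced by growth signals, had 1678.7 at 1 h, against 1060.4 on vehicle (log2 0.66), and later 5850.4 at 3 h and 662.3 to 781.8 at 6 to 24 h. Ier3, a stress-induced regulator of cell survival, had 1431.0 at 1 h, against 913.1 on vehicle (log2 0.65), and later 2856.0 at 3 h and 619.5 to 956.8 from 6 h on. For Plk2 and Ier3 the vehicle signal lay inside the range of the later arrays, unlike for Fos.

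Those 3 were the members of the immediate early list that were at least 1.5-fold higher, of 26 above the floor among 29 matched, and 0 were at least 1.5-fold lower (3.35% and 2.83% of all genes). The median log2 ratio of the 26 was 0.24, with 18 above 0 and 8 below (50.6% of all genes lay above 0). Next in size were Sgk1, a kinase induced by corticosteroids and serum (0.55), and Myc, the growth-promoting transcription factor (0.54). The partners and relatives of Fos were closer to the median gene. Egr1 had 1236.3 at 1 h, against 1018.0 on vehicle (log2 0.28), Junb and Klf6 had ratios of 0.28 and 0.32, Fosb 0.22 and Jun 0.18. Atf3 was at 0.01. Below 0 lay Jund (-0.23), Egr2 (-0.26) and the matrix-associated growth regulators Ccn1 (-0.23) and Ccn2 (-0.34). Fosl1, Klf2 and Maff were under the floor on both arrays.

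Of the list of feedback inhibitors, which restrain kinase and cytokine signals, 13 of 15 matched genes were above the floor. Dusp1 had 1073.1 at 1 h, against 701.7 on vehicle (log2 0.61), and later 1639.3 at 3 h, 1080.8 at 6 h and 842.6 to 887.8 from 12 h on. Errfi1, an inhibitor of the EGF receptor, had 1255.5 at 1 h, against 831.1 on vehicle (log2 0.60), and later 2931.8 at 3 h, with a ratio of 0.24 for its second probe set. In both genes the vehicle array was the lowest of the 7. Nfkbia, the inhibitor of NF-kappaB, and Dusp2 had ratios of 0.40 and 0.38.

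Socs3, an inhibitor of cytokine signalling through STAT3, went the other way. Its signal was 149.8 at 1 h, close to the floor, against 339.2 on vehicle (log2 -1.18), and later 633.2, 325.8, 273.0, 265.6 and 224.9 on the 3, 6, 12, 18 and 24 h arrays. Its other probe set had 237.4 at 1 h and 170.7 on vehicle (log2 0.48), so the pair disagreed in sign. The feedback list as a whole had a median of 0.09, with 2 of 13 at least 1.5-fold higher and 1 at least 1.5-fold lower (3.35% and 2.83% of all genes).

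Genes known to respond directly to glucocorticoid or androgen had a median log2 ratio of 0.17 over the 24 above the floor, of 28 matched. Of the 24, 5 were at least 1.5-fold higher and 1 lower (3.35% and 2.83% of all genes). Besides Cdkn1a, Dusp1 and Errfi1, described above, these were the clock gene Per1 and the transcriptional repressor Bcl6. Per1 had 397.1 at 1 h, against 241.2 on vehicle (log2 0.72), and later 339.3, 476.0, 293.2, 242.3 and 257.0 on the 3, 6, 12, 18 and 24 h arrays. Bcl6 had 556.5 at 1 h, against 349.7 on vehicle (log2 0.67), and was the only one of the 10 genes past 1.5-fold in the 4 lists whose 1 h signal was the highest of all 7 arrays. The stress gene Ddit4 had a ratio of 0.54 and the transcription factor Cebpd 0.47.

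Fkbp5 and Zbtb16, known direct targets of these hormones, were near vehicle at 1 h. Fkbp5, a co-chaperone of steroid receptors, had 172.9 at 1 h and 150.5 on vehicle (log2 0.20). Both signals were close to the floor, where a small change in Fkbp5 cannot be told from none. Its later signals were 329.8, 818.3, 1036.9, 830.2 and 364.4 on the 3, 6, 12, 18 and 24 h arrays. Zbtb16, a transcription factor, had a ratio of 0.28. The metallothionein genes Mt2 and Mt1 lay on opposite sides, at 0.37 and -0.35, and Klf9 was at 0.15 by its brightest probe set and at 1.05 by a dimmer one with 473.0 at 1 h and 229.2 on vehicle.

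Hsd11b2, whose enzyme inactivates glucocorticoids, was the one member of that list at least 1.5-fold lower. It had 172.9 at 1 h, against 325.9 on vehicle (log2 -0.91). The later signals were 644.6, 1035.6, 815.4, 608.3 and 708.8 on the 3, 6, 12, 18 and 24 h arrays, so both the 1 h and the vehicle signal lay below every later array. Its other probe set was under the floor on the 1 h and vehicle arrays.

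Steroid receptors and their coregulators had a median of -0.06 over 12 genes. Pgr, the progesterone receptor, had 461.0 at 1 h, against 357.1 on vehicle (log2 0.37). Esr1, the estrogen receptor, had 457.4 at 1 h and 480.8 on vehicle (log2 -0.07). A dimmer probe set of Esr1 was lower by at least 2.09-fold, with 71.7 at 1 h and 305.1 on vehicle, so the probe sets of this gene differed in size. Cited2, a coactivator, had a ratio of -0.53.

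Genes of the uterine estrogen response had a median of 0.12 over 22, with 16 above 0 (50.6% of all genes). Of the 22, 2 were at least 1.5-fold higher and 1, Hsd11b2, lower (3.35% and 2.83% of all genes). Vegfa, the vessel growth and permeability factor that is an early estrogen target in uterus, was the highest with 371.7 at 1 h, against 200.2 on vehicle (log2 0.89), and later 618.5, 513.2, 282.1, 214.8 and 269.2 on the 3, 6, 12, 18 and 24 h arrays. Aqp8, a water channel, followed with 348.8 at 1 h, against 226.2 on vehicle (log2 0.62). Of the estrogen targets in the list, Ltf (0.17), Igf1 (-0.04), Ccnd1 (-0.16) and Muc1 (0.02) differed little. Others lay farther out on both sides, such as Padi1 (0.53), Ramp3 (0.52), Clu (-0.48) and Lcn2 (-0.37). In the list of vessel growth and tone, 2 of 17 were at least 1.5-fold higher (3.35% of all genes), namely Vegfa and Adm, the vasodilator adrenomedullin, with 302.4 at 1 h and 175.1 on vehicle (log2 0.79). The median of that list was -0.05, and Edn1, the vasoconstrictor endothelin, was its lowest member at -0.49 with the vehicle array the highest of the 7.

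The medians of the protein-folding lists were slightly above 0 against vehicle and below 0 against the later DHT arrays, at -0.32 for heat shock and -0.28 for the endoplasmic reticulum. Of 14 heat shock genes 11 were above 0 (50.6% of all genes), with a median of 0.18. Hspa1a had 898.5 at 1 h, against 604.0 on vehicle (log2 0.57), Hsp90aa1 had a ratio of 0.37 and Hspa8 0.36. Cryab, a small heat shock protein, was the only member at least 1.5-fold higher (3.35% of all genes). It had 266.1 at 1 h and 175.2 on vehicle (log2 0.60). Hspd1, the mitochondrial chaperonin, was the lowest with 3309.0 at 1 h and 4604.3 on vehicle (log2 -0.48). Of 15 genes of the endoplasmic reticulum, where secreted proteins fold, the median was 0.12. Pdia3, a disulfide isomerase, had 1558.2 at 1 h, against 964.5 on vehicle (log2 0.69), with no other probe set. Its relative Pdia6 had 783.4 at 1 h and 968.6 on vehicle by its brightest probe set (log2 -0.31), and 899.0 at 1 h and 557.1 on vehicle by another (log2 0.69), so its probe sets disagreed in sign.

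Lists tied to growth stood near 0 at this time. The median was -0.03 for 20 genes of ribosome production, -0.06 for 20 of DNA replication, 0.10 for 19 of mitosis and -0.03 for 10 cytosolic ribosomal proteins. Pcna, the sliding clamp of DNA polymerase, had 744.4 at 1 h and 1146.6 on vehicle (log2 -0.62), and Rrm1, a subunit of ribonucleotide reductase, had 551.7 at 1 h and 356.3 on vehicle (log2 0.63). These were the only members of the 4 lists at least 1.5-fold apart, 1 in each direction. Of all genes, 3.35% were that much higher and 2.83% that much lower.

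The circadian clock list had 11 of 14 genes below 0 (2963 of all 6003 genes) and a median of -0.11. Per1 was its one member past 1.5-fold (3.35% of all genes were that much higher and 2.83% lower). The core clock genes Arntl (-0.12), Clock (-0.18) and Cry1 (-0.10), the clock gene Per3 (-0.29) and the outputs Dbp (-0.08) and Tef (-0.23) were each slightly lower at 1 h, and Nr1d1 was at 0.03. The hour of death is not given in the labels.

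Among genes of sugar breakdown 11 of 15 lay below 0 (2963 of all 6003 genes), with a median of -0.10. Of the 15, 1 was at least 1.5-fold higher and 1 lower (3.35% and 2.83% of all genes). Pfkfb3, which makes an activator of glycolysis, had 171.9 at 1 h, against 396.3 on vehicle (log2 -1.21), with later signals from 214.0 to 425.9. Slc2a1, the main glucose transporter, had 237.4 at 1 h and lay under the floor on vehicle, at 103.2 (log2 0.70, a bound). Hk1, a hexokinase that starts glycolysis, had 8075.1 at 1 h and 10123.6 on vehicle (log2 -0.33).

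In the developmental signalling list the median of 21 was 0.13. Smad7, an inhibitor of TGF-beta signalling, was the one member past 1.5-fold (3.35% of all genes higher and 2.83% lower). It had 653.1 at 1 h and 366.6 on vehicle (log2 0.83). The lowest member of the list, Tgfb3, had 1085.1 at 1 h and 1493.0 on vehicle (log2 -0.46), with vehicle the highest of the 7. Cytokine genes were mostly dark, with 10 of 25 above the floor. Vcam1, a leukocyte adhesion molecule, had 255.1 at 1 h and lay under the floor on vehicle (log2 0.81, a bound), and the chemokine Cxcl5 was under the floor at 1 h, with 251.8 on vehicle (log2 -0.79, a bound). Interferon-induced genes had a median of 0.01, with Ifit3 at 0.58 and the GTPase Igtp at -0.65.

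**Figure D2:**
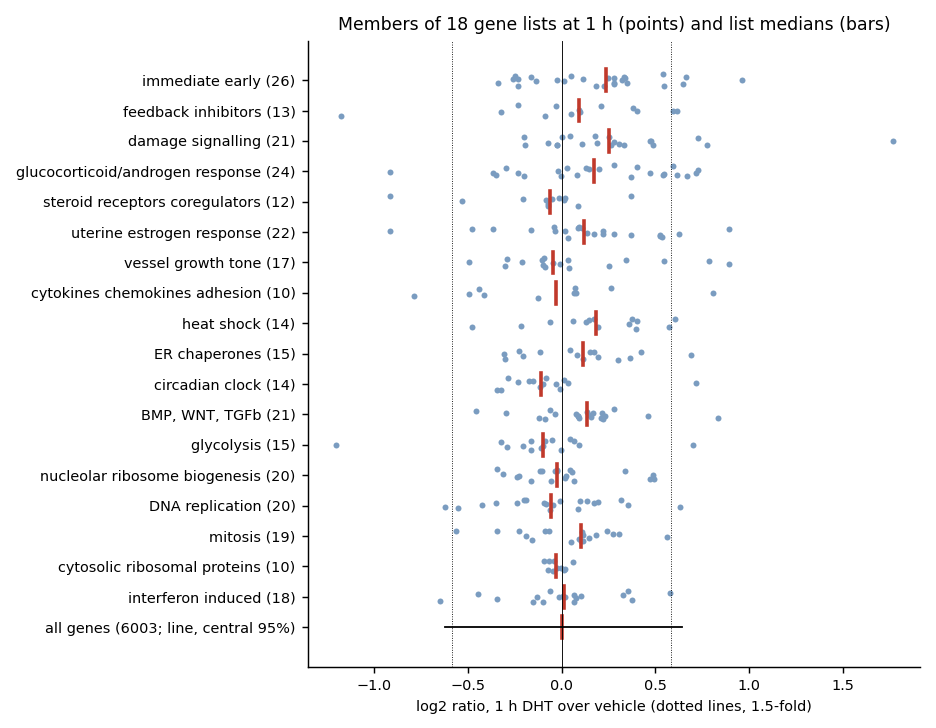
Log2 ratio of 1 h DHT over vehicle for each member above the floor (points) of 18 gene lists, with the number of members in brackets, red bars for list medians and dotted lines at 1.5-fold. The immediate early and damage lists had medians of 0.24 and 0.25, and the bottom line spans the central 95% of all 6003 genes.

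Of the 12 lists of cell type markers, 133 markers were matched and 89 were above the floor, of which 2 were at least 1.5-fold higher and 4 lower (3.35% and 2.83% of all genes). List medians ran from -0.37 for 3 genes of red cells and platelets to 0.17 for 5 of neutrophils, eosinophils and mast cells. The summed signal of the epithelial list was 16355.2 at 1 h and 15251.7 on vehicle, and that of the smooth muscle list was 40910.4 at 1 h and 43871.0 on vehicle. Des, the intermediate filament of muscle, was the most distant muscle marker with 390.2 at 1 h, against 716.2 on vehicle (log2 -0.88). Epithelial Cldn4 had 442.0 at 1 h, against 298.4 on vehicle (log2 0.57), and Cdh1, the epithelial cadherin, 857.3 at 1 h and 1006.3 on vehicle (log2 -0.23). Hba-a1, the alpha globin of red cells, had 1697.9 at 1 h and 1723.7 on vehicle (log2 -0.02). Of 12 lymphocyte markers matched, 5 were above the floor, as were 5 of 13 of neutrophils, eosinophils and mast cells. Cd3e, Cd3g, Cd3d and Cd8a of T cells and the granulocyte genes S100a8, S100a9 and Mpo were under it on both arrays. Cd4 (325.9 at 1 h and 308.4 on vehicle), Gzmb (281.3 and 328.2), Elane (339.7 and 419.6) and Ltf (3084.9 and 2735.7) were above it on both.

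Fat cell genes differed among themselves. Lep, the hormone leptin, had 1210.5 at 1 h, against 390.5 on vehicle (log2 1.63), and 669.0, 971.2, 762.5, 557.6 and 818.6 on the arrays from 3 h to 24 h. Its other probe set was under the floor on both sides, with 67.5 at 1 h and 73.0 on vehicle. The other 9 adipocyte markers above the floor ran from -0.85 to 0.03. Adipoq, the hormone adiponectin, had 2228.4 at 1 h and 2467.8 on vehicle (log2 -0.15), Retn had a ratio of -0.32 and Lipe, the hormone-sensitive lipase, 307.3 at 1 h and 552.8 on vehicle (log2 -0.85). The summed signal of the 10 adipocyte markers was 8575.4 at 1 h and 9255.4 on vehicle, and 5548.3 to 7902.7 on the later arrays. The part of the fat cell content in these values was not tested.

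Over the whole array, 46 probe sets (0.37%) were at least 2-fold higher at 1 h than on vehicle and 49 (0.394%) at least 2-fold lower, among those whose higher signal was at least 291.8, 2 times the floor. On the 3, 6, 12, 18 and 24 h arrays, set against the same vehicle array, the shares higher were 0.797%, 0.845%, 1.18%, 0.918% and 0.636%, and the shares lower were 0.564%, 0.813%, 0.942%, 0.716% and 0.668%. Both shares were smallest at 1 h. Of the 46 higher probe sets, 39 name 1 gene, and of the 49 lower ones 42 do. Counted by gene, 30 genes were higher, 0.639% of the 4692 with that signal and 0.5% of the 6003 above the floor. Lower were 32 genes, 0.682% and 0.533%.

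Most of these ratios belonged to dim genes. Among 2914 genes whose higher signal lay between 291.8 and 1000, 26 were at least 2-fold higher and 31 lower, and 95% of the log2 ratios lay between -0.72 and 0.68. Among 1633 genes between 1000 and 5000 the counts were 4 and 1, and 95% lay between -0.44 and 0.50. Among the 145 genes at 5000 or more there were 0, and 95% lay between -0.29 and 0.33.

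**Figure D3:**
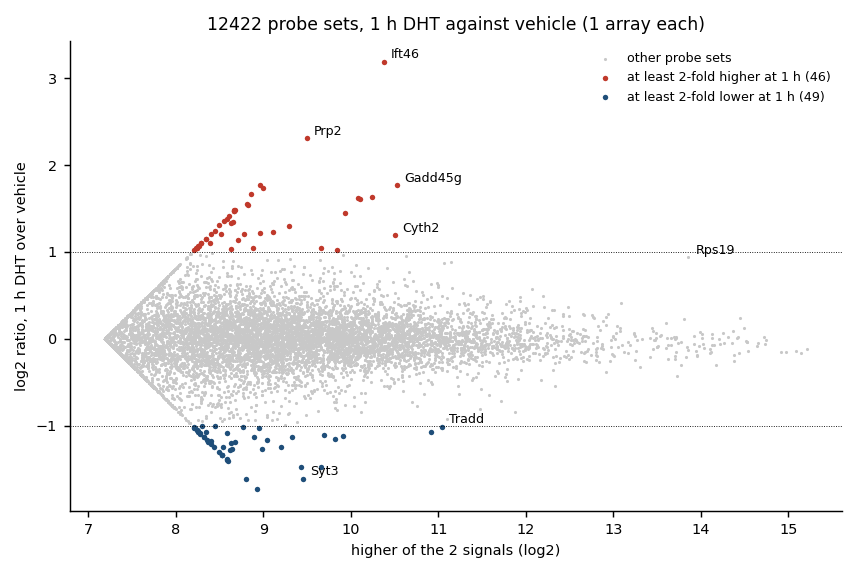
Log2 ratio of 1 h DHT over vehicle for 12422 probe sets against the higher of the 2 signals (log2), with the 46 at least 2-fold higher in red and the 49 at least 2-fold lower in blue. The spread narrows as signal rises. A probe set of Ift46 (3.19) and one of Prp2 (2.31) lie above Gadd45g (1.77).

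After Gadd45g and Larp7, the highest genes at 1 h were Nxn, Lep, Hsd3b7, Rarg, Matk, Wbp4, Ebi3, Lgals7, Htr3a, Fam83g, Grik5, Srpx and Nup107, with log2 ratios from 1.30 to 1.74. Larp7, which binds the small nuclear RNA 7SK, had 497.6 at 1 h and lay under the floor on vehicle, at 98.7 (at least 3.41-fold). Its 3 h to 24 h signals were 278.0 to 440.6, and its 2 other probe sets had ratios of 0.17 and -0.01. Nxn, a redox protein related to thioredoxin, had 512.2 at 1 h, against 153.3 on vehicle (log2 1.74), with 272.7 to 344.6 on the later arrays. Rarg, a retinoic acid receptor, had 453.3 at 1 h, against 155.4 on vehicle (log2 1.54), with 282.0 to 339.3 later. For all 3 genes 1 h was the highest and vehicle the lowest of the 7 arrays.

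In others the 1 h signal was ordinary and the vehicle signal low. Hsd3b7, an enzyme of bile acid synthesis, had 1097.6 at 1 h, against 360.7 on vehicle (log2 1.61), and 786.6 to 1140.4 later. Nup107, of the nuclear pore, had 627.1 at 1 h, against 254.4 on vehicle (log2 1.30), and 1 h had rank 5 of the 7 from high to low. Lgals7, a galectin of epithelia, had 405.8 at 1 h, lay under the floor on vehicle and reached 580.4 at 18 h. Among the 15 highest the vehicle was the lowest array in 13 and at the floor in 6, and 1 h was the highest array in 6. Choosing genes by the ratio of 1 h to vehicle favours such positions.

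The 15 lowest genes were Akirin1, Syt3, Bdkrb1, Prss30, Ppfibp2, Slc6a18, Kcnd3, Ppp2r5d, Pofut2, Sdf2, Drd4, Cdkn2d, Pfkfb3, Pspn and Socs3, with log2 ratios from -1.62 to -1.18. Here 1 h was the lowest of the 7 arrays in 11, vehicle the highest in 7, and 1 h lay under the floor in 6. The choice by the ratio of 1 h to vehicle favours these positions too. Akirin1, a nuclear protein, had 70.8 at 1 h, against 447.6 on vehicle (at least 3.07-fold lower), then 169.3, 330.2, 367.4, 440.5 and 451.9 on the 3, 6, 12, 18 and 24 h arrays. The later signals were higher with each time, and those at 18 and 24 h were close to vehicle. Syt3, a synaptotagmin, had 229.2 at 1 h, against 700.4 on vehicle (log2 -1.61), and 424.3 to 565.2 later. Bdkrb1, a kinin receptor, had 248.2 at 1 h, against 689.5 on vehicle (log2 -1.47), and 721.1 at 3 h, then 319.8 to 377.6. Cdkn2d, an inhibitor of cyclin-dependent kinases, had 156.6 at 1 h, against 370.6 on vehicle (log2 -1.24), with 198.5 to 404.9 later.

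**Figure D4:**
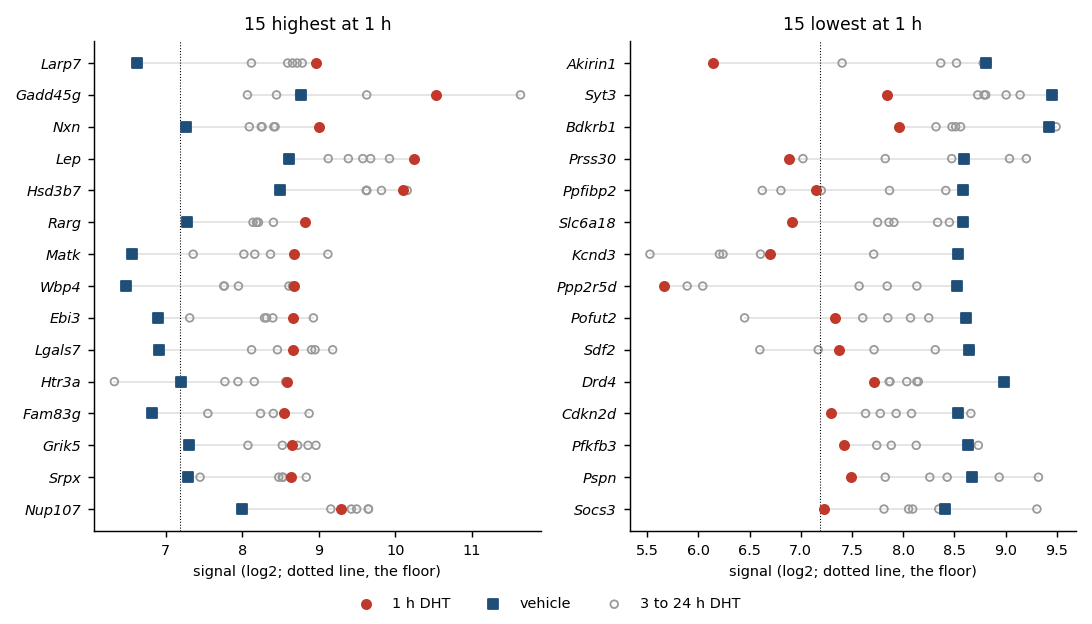
Signal (log2) on the 7 arrays for the 15 highest genes (left) and the 15 lowest (right), with 1 h DHT in red, vehicle as a blue square, the 5 later DHT arrays as open circles and the floor as a dotted line. On the left the vehicle is the lowest of the 7 arrays in 13 genes, and on the right 1 h is the lowest in 11. The genes were chosen by the ratio of 1 h to vehicle, which favours such positions.

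Probe sets at least 2-fold above all 6 other arrays numbered 4 at 1 h (0.0322% of 12422), and 0 were that far below all others. The corresponding numbers ran from 2 to 7 above and from 0 to 7 below on the later arrays, and the vehicle array had 0 above and 6 below. The 4 at 1 h were single probe sets of Tmem129, Mob2, Prp2 and Ttr. That of Prp2, a salivary proline-rich protein, had 722.7 at 1 h and 116.3 to 143.4 on the other 6 arrays, all under the floor, so its difference is at least 4.95-fold. The brighter probe set of Prp2 had a ratio of -0.34. That of Tmem129, a membrane-bound ubiquitin ligase, had 1080.0 at 1 h, against 349.6 on vehicle (log2 1.63), and the brighter probe set of the gene had 0.47. Those of Mob2, a kinase regulator, and of Ttr, the thyroid hormone carrier transthyretin, had 302.0 and 313.7 at 1 h and lay under the floor on each other array. The 6 probe sets low on vehicle alone were those of Nup107, Afg3l1, Hsd3b7, Ift46, Bud31 and Rab31.

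The highest ratio of all probe sets was that of a probe set of Ift46, which serves transport in cilia. It had 1329.5 at 1 h and 145.6, just under the floor, on vehicle (log2 3.19), with 364.1 to 1211.4 on the later arrays. The brighter probe set of Ift46 had 888.6 at 1 h and 1153.4 on vehicle (log2 -0.38), the opposite sign. Of the probe sets past 2-fold that name 1 gene, 9 of the higher and 10 of the lower were not the brightest of their gene. The brightest had the same sign in 6 of the 9 and in 6 of the 10, and was past 1.5-fold in that direction in 1 (Tollip) and 0.

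Where a gene had several probe sets above the floor, 957 genes in all, the ratios of the brightest and the next had a Pearson r of -0.02. The points are genes of the same pair of arrays and not replicates. Of 37 such genes at least 1.5-fold apart by the brightest, 16 had the same sign by the next, and of 5 at least 2-fold apart 2 did. Among the classes of probe set, those for which the maker dropped some rules of probe choice (suffix r) were past 2-fold most often, in 5.68% of those over the minimum signal, against 1.32% of the plain ones. Gadd45g, Gadd45a, Plk2, Ier3, Dusp1, Per1 and Bcl6 had 1 probe set each, so no such check exists for them. Nor is there one for Lep, Fos, Vcam1, Akirin1, Syt3, Pfkfb3, Cryab and Rrm1, whose other probe sets were under the floor on the 1 h and vehicle arrays. Some other genes described, such as Map3k4, Egr1, Junb and Nfkbia, have a dimmer probe set whose ratio is not given here.

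Genes with a higher signal of at least 1000 lie where the spread is small, and the 10 highest and 10 lowest were named after their values were seen. Probe sets of a gene agreed no better at that brightness. Over 127 genes whose brightest and next probe sets both had at least 1000 on the higher array, the Pearson r was -0.14. The ratios of Med27, Tradd and Cryl1 come from probe sets of suffix r. After Gadd45g, Lep and Hsd3b7, the higher ones were Cyth2, Cd82, Rps19, Clns1a, Adk, Med27 and Fcf1. Cyth2, an exchange factor for ARF GTPases, had 1455.1 at 1 h, against 636.3 on vehicle (log2 1.19), and 544.6 to 1059.6 later. The 1 h array was the highest of the 7 for this gene, with vehicle inside the range of the others. Cd82, a tetraspanin, had 1584.8 at 1 h, against 815.5 on vehicle (log2 0.96), with -0.25 for a second probe set and 670.3 to 1906.3 on the later arrays. Rps19, of the small ribosomal subunit, had 14828.2 at 1 h and 7726.5 on vehicle (log2 0.94), with 10911.1 to 16747.4 later, so its ratio comes with a vehicle signal below every other array.

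The lower ones of that brightness were Tradd, Dvl1, Sec61a2, H2-T18, Arfgap2, Cryl1, Lgals9, Slc48a1, Atp6v0e2 and Vps37c, with log2 ratios from -1.01 to -0.67. In 9 of the 10 the vehicle array was the highest of the 7, and in 4 of the 10 the 1 h array was the lowest. Again the choice of genes by their ratio favours this. Tradd, an adaptor of the TNF receptor, had 1042.4 at 1 h, against 2103.6 on vehicle (log2 -1.01), and 443.0 at 3 h. Lgals9, a galectin, had 1002.5 at 1 h, against 1665.8 on vehicle (log2 -0.73), with 1107.0 to 1537.1 later, and a dimmer probe set had 159.6 at 1 h and lay under the floor on vehicle (log2 0.13).

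The same 1 h signals were also divided by the median of the 5 later DHT arrays, which replaces the vehicle pool and also was not taken at 1 h. These ratios share the 1 h array with those to vehicle. Gadd45g was at 1.78 against the later median, beside 1.77 against vehicle, and Cyth2 was at 1.19 on both. Gadd45a was at 1.14 beside 0.78, Plk2 at 1.16 beside 0.66, Ier3 at 0.76 beside 0.65 and Bcl6 at 0.70 beside 0.67. These genes were as far or farther from the later arrays as from vehicle. Fos was at 0.44 beside 0.97, Per1 at 0.44 beside 0.72, Dusp1 at 0.27 beside 0.61, Cdkn1a at 0.05 beside 0.73 and Errfi1 at -0.07 beside 0.60. Among the 15 highest, Larp7 was at 0.30 beside 1.77, Lep at 0.67 beside 1.63 and Nup107 at -0.20 beside 1.30. Akirin1 was at -1.33 beside -1.62, Syt3 at -0.97 beside -1.61 and Socs3 at -0.87 beside -1.18, and Hsd11b2 at -2.04 beside -0.91.

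**Figure D5:**
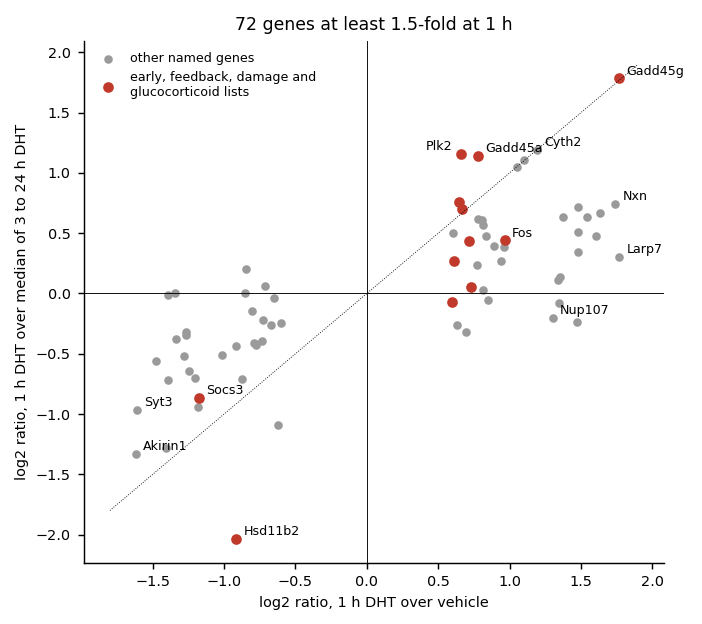
For the 72 named genes at least 1.5-fold from vehicle at 1 h, the log2 ratio of 1 h over vehicle (horizontal) and over the median of the 5 later DHT arrays (vertical), with genes of the 4 early lists in red and a dotted line of equality. Both axes share the 1 h array; Gadd45g lies on the line, at 1.77 and 1.78, and Nup107 lies under 0 on the vertical axis.

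By list, the median against the later arrays was 0.25 for immediate early genes, 0.22 for feedback inhibitors, 0.15 for damage signalling and 0.27 for the glucocorticoid and androgen list, beside 0.01 for all genes. Other lists lay on the opposite side of 0. Against the later arrays the median was -0.32 for heat shock genes, -0.28 for endoplasmic reticulum chaperones, -0.40 for mitosis, 0.15 for the circadian clock and 0.33 for fat cell markers, and in all 9 of the 30 lists had the opposite sign to that against vehicle.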

How the data were processed

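Total RNA of pooled uteri, 20 µg, was labelled for the Affymetrix U74Av2 array, 1 array for each of 7 groups. The deposited values are signal intensity; the submitters' processing notes name MAS5, and its version is not given in the sources used here. The trimmed mean (2 to 98 percent) of each array is 499.9, so the authors' scaling to a common target was kept. Of 12488 probe sets, 66 controls were left out. Gene names came from the platform's table: 10833 probe sets name 1 gene, 396 several and 1193 none.

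Signals were floored at 145.9 and ratios taken on the log2 scale in Python 3.11.15 (numpy 2.4.6, pandas 2.3.3). The calculation was tested on simulated data. No test was possible with 1 array a group, and the number of arrays limits precision. Named genes were the 15 highest and 15 lowest ratios, genes high at 1 h alone and members of the 4 main lists past 1.5-fold. From each other list came the members past 2-fold or, where there were none, the highest and lowest member. The 5 largest bounds each way, Fkbp5, Atm and the Gadd45 genes were named too. Brightly measured genes were added after values were seen. Genes described outside this rule, such as Slc2a1, Lipe, Adm and Aqp8, are not counted among the named genes. The comparison, its members and the 30 gene lists were chosen with earlier results of these data known. The design text names 0.5 h in place of 18 h, and the array titles were followed. Promoters were matched by symbol. Alternatives changed the floor, scaling, fold, minimum signal, denominator and choice of probe set.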

Additional observations from a re-analysis of the deposited data

Results flagged for a closer look

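Hsd11b2, which encodes the enzyme that inactivates glucocorticoids, was lower than vehicle at 1 h (log2 -0.91) and higher than vehicle on the later arrays, with log2 ratios of 1.67 at 6 h, 1.32 at 12 h and 1.12 at 24 h. It was singled out because its ratio at those times is at least 2-fold and opposite in sign to that at 1 h. All these ratios share the vehicle array, each time is 1 array, and the difference between times was not tested.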

How the results depend on the processing

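No paired analysis was possible because each group had 1 array. The number of probe sets past 2-fold followed the floor and the thresholds. It was 276 higher, 343 lower and 619 in all with the floor at the 20th percentile, where the minimum signal falls with the floor, and 10, 6 and 16 with the floor at the 60th. It was 187, 188 and 375 at 1.5-fold, and 9, 3 and 12 at 3-fold. With the 24 h DHT array as denominator 76 were higher and 149 past 2-fold in all. Of alternatives added after seeing the data, a higher signal of at least 1000 left 6, 2 and 8, and probe sets without a letter in the suffix left 29 lower. Of the 4 main list medians, those that moved by over 0.1 were 0.14 for damage signalling with the floor at the 60th percentile and 0.11 over the 24 h array, 0.22 for feedback inhibitors over the median of the later arrays and 0.24 over the 24 h array, 0.34 for the glucocorticoid and androgen list over the 24 h array, and 0.13 for immediate early genes by the mean over probe sets. Of the other 26 lists, 18 moved by over 0.1 and 9 turned in sign over the later median, and 16 moved and 10 turned over the 24 h array. Over the 24 h array the medians of mitosis and smooth muscle were -0.67 and that of fat cell markers was 0.57.

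Of the 72 named genes at least 1.5-fold apart, 72 kept their sign with the floor at the 20th percentile, no floor, quantile normalization, a common median and the mean over probe sets, 62 with the floor at the 60th percentile, 61 over the later median and 59 over the 24 h array. Of the 34 at least 2-fold apart, 24 were still 2-fold in the same direction by the mean over probe sets, 5 with the floor at the 60th percentile, 6 over the later median and 9 over the 24 h array. The sign turned over the later median for 9 genes, Lgals7 (-0.24), Grik5 (-0.076), Nup107 (-0.20), Pdia3 (-0.32), Rrm1 (-0.26), Errfi1 (-0.068), Clns1a (-0.057), Sec61a2 (0.20) and Atp6v0e2 (0.061). It turned over the 24 h array for 12, Hsd3b7 (-0.055), Lgals7 (-0.29), Srpx (-0.20), Nup107 (-0.20), Pdia3 (-0.40), Adk (-0.31), Rrm1 (-0.26), Rps19 (-0.18), Sdf2 (0.19), Sec61a2 (0.61), Igtp (0.067) and Atp6v0e2 (0.061). The remaining genes that did not keep their sign were at 0. The cause was not tested. Dim signals near the floor limit every ratio given as a bound.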
